A study of Mus musculus with 4 samples.

Results

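The 9 genes described here encode the amyloid precursor protein (App), the enzymes that cut it (Bace1, Adam10 and the gamma-secretase subunits Psen2, Ncstn, Aph1a and Psenen), the microtubule protein tau (Mapt) and the lipid carrier apolipoprotein E (Apoe). They were chosen by their symbols in the platform annotation, and each had 1 probe set, so that 9 of the 19572 probe sets with a symbol are covered. They were measured in brain cortex of male SAMP8 mice, a strain that ages early and develops deficits of learning and memory. The treated animals received TCQA, a compound named only by this abbreviation in the labels, by mouth at 5 mg/kg each day over 1 month, starting when they were 11 months old. The control animals were given MilliQ water. All had lived in single cages for 4 months from the age of 7 months, and none of the labels names a transgene. Each group had 2 arrays (Clariom S, 1 log2 signal per probe set), and whether each array stands for a mouse of its own is not stated in the labels. The p-values therefore reflect only how far these arrays differ, a spread that may be technical.

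As background, the amyloid precursor is a membrane protein that is cut along alternative routes. The alpha-secretase ADAM10 cuts within the amyloid-beta segment, while the beta-secretase BACE1 cuts at its start and leaves a stub from which gamma-secretase releases amyloid-beta. Gamma-secretase is a complex of a presenilin, which holds the active site, with nicastrin, APH-1 and the presenilin enhancer PEN-2. Tau binds microtubules in axons and is phosphorylated by several kinases, and apolipoprotein E, made in brain largely by astrocytes and by microglia, carries lipids between cells.

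Of the 9 genes, 8 had signals above the median negative control on every array. None of these 8 differed by as much as 2-fold between TCQA and control cortex. In the limma fit, which draws each gene's spread toward that of all probe sets (moderation), each of their 95% confidence intervals lay inside a 2-fold change in either direction. For Mapt this depended on the moderation. Without it the SE was 0.27 instead of 0.23, and only the 2 residual degrees of freedom were left. Both widen the interval, which then reached past a 2-fold fall. Both TCQA arrays lay above both control arrays for Psenen and Adam10, and below them for Bace1, while the arrays of the groups overlapped for App, Mapt, Aph1a, Ncstn and Apoe. The other gene, Psen2, had higher values on the TCQA arrays and an unadjusted p under 0.05, but its signal lay under the median negative control on all 4 arrays, so whether its transcript was detected at all is uncertain. In limma, 0 of the 9 passed after Benjamini-Hochberg adjustment across the 22206 probe sets tested (smallest adjusted p = 0.7875), as did 0 of all probe sets, a share of 0.0%.

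At an unadjusted p under 0.05, 1 of the 9, the dim Psen2, was called, against 6.24% of all probe sets, or 3.38% in the direction of higher values with TCQA. The arrays of the groups did not overlap for 4 of the 9 (44.4%), against 36.6% of all probe sets and 39.6% of those at or above the median signal, so the count of genes with separate groups was near the background. Of these, 3 were higher with TCQA (background 18.9%) and 1 was lower (background 17.8%). No member met the depositors' criterion of an unadjusted p under 0.05 with a change over 2-fold, which 0.374% of all probe sets met. The median log2 difference of the 9, TCQA minus control, was 0.06, beside 0.01 over all probe sets, and the median size of a difference regardless of sign was 0.10 for the 9 and 0.17 for all probe sets. With 2 arrays in each group an exact permutation test of a single value can give no p below 0.333.

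**Figure D1:**
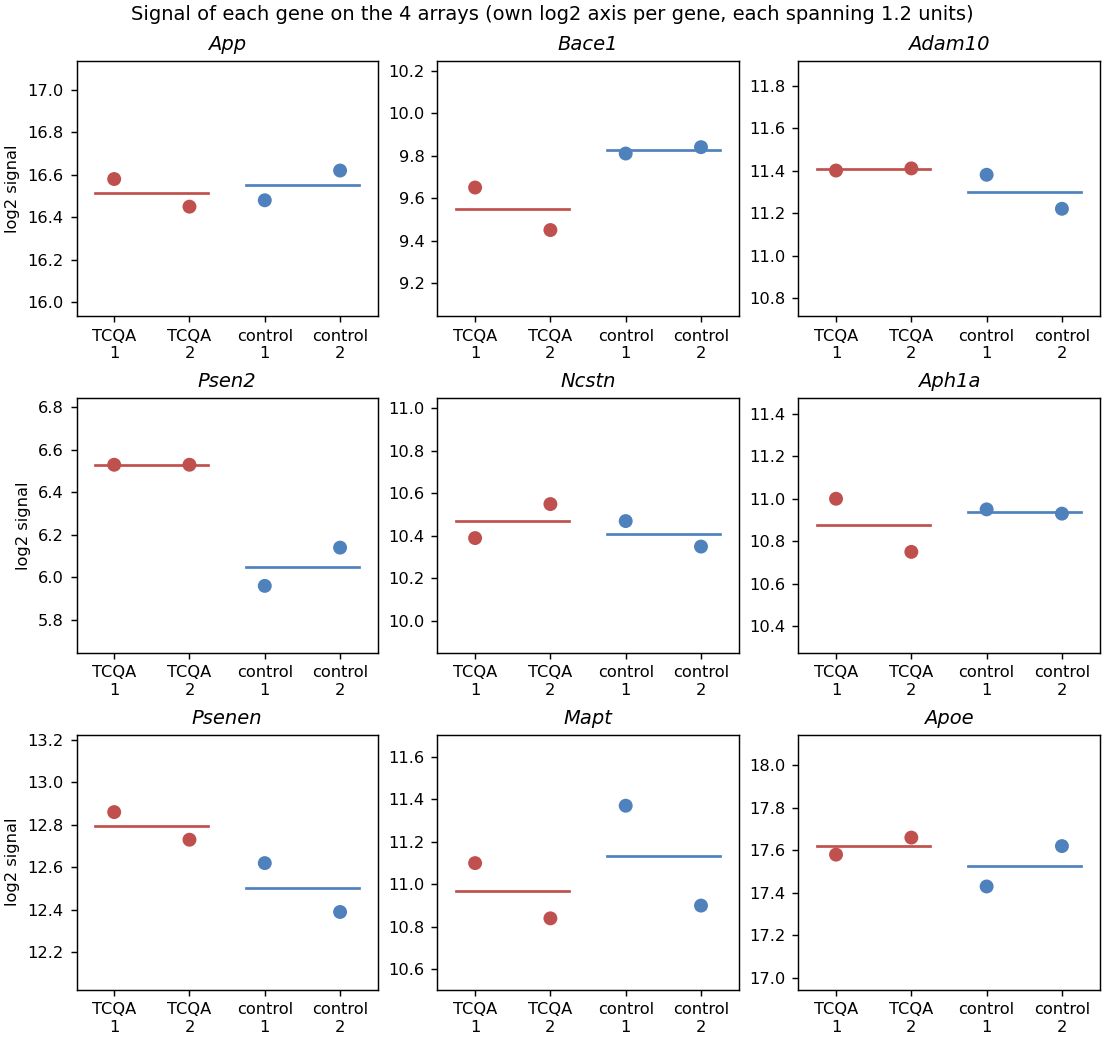
Log2 signal of each of the 9 genes on the 2 TCQA arrays (red, left) and the 2 control arrays (blue, right), with a line at each group mean. Each panel has its own axis of equal length. The groups stand apart for Bace1, Adam10, Psen2 and Psenen, and the 4 arrays of a gene span between 0.17 (App) and 0.57 (Psen2).

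The promoter windows of Psen2 and Psenen are shown because these were the gamma-secretase subunits whose groups did not overlap. Each is the 250 bases upstream of the outermost transcription start that RefSeq lists for the gene in GRCm38.p6, both on the minus strand, at chr1:180256301-180256550 for Psen2 and chr7:30563628-30563877 for Psenen. Capitals mark matches on either strand to any of 6 short motifs.
Psen2: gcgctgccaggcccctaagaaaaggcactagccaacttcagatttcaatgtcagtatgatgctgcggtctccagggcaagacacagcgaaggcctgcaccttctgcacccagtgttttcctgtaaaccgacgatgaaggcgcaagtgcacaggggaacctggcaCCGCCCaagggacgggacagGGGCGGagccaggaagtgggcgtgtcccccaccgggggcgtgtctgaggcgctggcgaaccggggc
Psenen: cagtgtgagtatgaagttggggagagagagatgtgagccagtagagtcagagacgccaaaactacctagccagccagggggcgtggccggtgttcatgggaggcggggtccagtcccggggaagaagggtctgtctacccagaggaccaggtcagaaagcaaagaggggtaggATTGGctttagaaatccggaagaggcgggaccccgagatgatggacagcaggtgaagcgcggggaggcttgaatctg
The motifs searched were the TATA box (letters TATAAA), the CCAAT box, the GC box (letters GGGCGG), the core of the cAMP response element (letters TGACG), the AP-1 site (letters TGANTCA) and the E-box (letters CACGTG). The Psen2 window held 2 GC boxes and the Psenen window 1 CCAAT box, on the strand opposite to the gene, and no match overlapped another. Each gene has a further listed start whose window is not shown. That window held 1 E-box for Psen2 and 2 cAMP response element cores for Psenen, and no GC or CCAAT box for either. Among the 32851 windows of this length in the table, 32.7% held a GC box, 33.8% a CCAAT box, 6.0% an E-box and 17.8% a cAMP response element core. GC content of the windows shown was 62.8% for Psen2 and 58.4% for Psenen, beside a median of 52.4% over all windows. The Psenen window shown lies inside the neighbouring gene U2af1l4, which runs on the opposite strand. These matches describe the letters of the windows and were not tested as sites.

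Among the substrates and the enzymes that make the first cut, App had log2 signals of 16.58 and 16.45 on the TCQA arrays, against 16.48 and 16.62 on the control arrays. The groups overlapped, with the highest and the lowest control array on either side of TCQA replicate 1. The difference was -0.04 (SE 0.18, 95% confidence interval -0.47 to 0.39), so an increase above 1.31-fold, or a fall to below 0.722 of the control level, lay outside the interval. The size of the App difference was exceeded by 87.47% of all probe sets, and its sign turned to 0.01 under quantile normalization.

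Bace1, the beta-secretase, had log2 signals of 9.65 and 9.45 with TCQA, against 9.81 and 9.84 in control. Both TCQA arrays were below both control arrays, by at least 0.17, and the TCQA arrays differed from each other by 0.20, more than the control arrays did (0.02). The difference of -0.28 (SE 0.18, 95% confidence interval -0.71 to 0.16), 1.21-fold lower with TCQA, did not pass the unadjusted threshold of 0.05 (limma adjusted p = 0.832), and it was -0.18 without TCQA replicate 2. Adam10, the alpha-secretase, had log2 signals of 11.40 and 11.41 with TCQA, against 11.38 and 11.22 in control. The TCQA arrays lay above both control arrays, but the lower TCQA array exceeded the higher control array by 0.02, less than the 0.16 between the control arrays. Its difference was 0.10 (SE 0.18, 95% confidence interval -0.33 to 0.53, limma adjusted p = 0.942), and leaving out control replicate 2 gave 0.023, leaving out control replicate 1 gave 0.18.

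Since ADAM10 and BACE1 start the alternative routes of App cutting, the log2 ratio of their signals was also read within each array. It was 1.75 and 1.95 with TCQA, against 1.57 and 1.38 in control, a difference of 0.38 with the groups apart. The exact permutation test gave p = 0.333, the smallest p that 2 arrays per group allow. Both TCQA arrays lay above both control arrays for Adam10 and below them for Bace1. The groups of the ratio therefore had to be apart, which fixed this p, and the ratio adds no support beyond the 2 genes. Signals of different probe sets are not on a common scale, so the ratio itself has no meaning beyond its change between arrays, and this ratio was chosen after the values were seen.

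**Figure D2:**
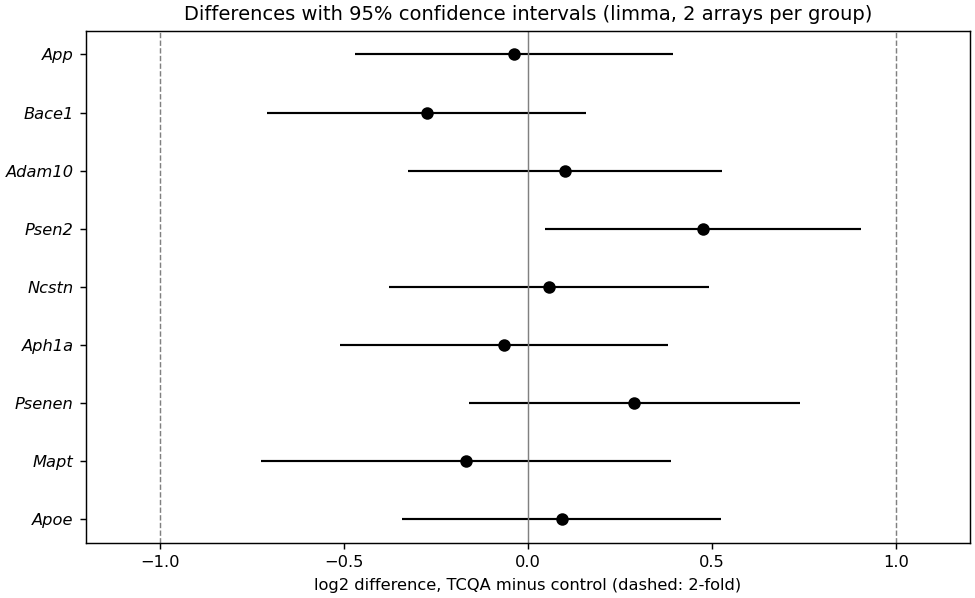
Log2 difference (TCQA minus control) of each gene as a point with its 95% confidence interval from limma, 2 arrays per group. The dashed lines mark a 2-fold change. All 9 intervals lie between them, and that of Psen2 (0.05 to 0.91) excludes 0 before adjustment, from signals under the median negative control.

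Of the gamma-secretase subunits, Psen2, which encodes presenilin 2, one of the alternative catalytic subunits, had log2 signals of 6.53 and 6.53 with TCQA, against 5.96 and 6.14 in control. On all 4 arrays the signal was under that of the median negative control, and only 24.7% to 36.6% of the negative controls were dimmer. The values do not show that the transcript was detected, and no fold is given. The TCQA values were almost identical and both lay above the control values, by at least 0.38. The difference between these signals was 0.48 (SE 0.18, 95% confidence interval 0.05 to 0.91), which passed the unadjusted threshold but not the adjusted one (limma adjusted p = 0.7875). Without any 1 of the 4 arrays the difference was 0.39 to 0.57 and the unadjusted threshold was no longer passed.

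Psenen, which encodes PEN-2, the small subunit needed for presenilin to be cleaved into its active form, had log2 signals of 12.86 and 12.73 with TCQA, against 12.62 and 12.39 in control. The groups were separate by 0.11, which is less than the 0.23 between the control arrays. The difference was 0.29 (SE 0.19, 95% confidence interval -0.16 to 0.74), 1.22-fold higher with TCQA (limma adjusted p = 0.832), and it was 0.17 without control replicate 2. Ncstn, which encodes nicastrin, the glycoprotein that receives substrates, had log2 signals of 10.39 and 10.55 with TCQA, against 10.47 and 10.35 in control, and Aph1a, the scaffold subunit, had 11.00 and 10.75, against 10.95 and 10.93. For both genes the groups overlapped. The differences were 0.06 for Ncstn (95% confidence interval -0.38 to 0.49) and -0.06 for Aph1a (95% confidence interval -0.51 to 0.38). The confidence intervals of Ncstn, Aph1a and Psenen overlapped, which is no test of whether their changes differ.

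Mapt had log2 signals of 11.10 and 10.84 with TCQA, against 11.37 and 10.90 in control. The groups overlapped, and the control arrays were farther apart (0.48) than for any other of the 9 genes. The difference was -0.17 (SE 0.23, 95% confidence interval -0.73 to 0.39), the widest interval of the 9, and it was 0.07 without control replicate 1. That array was also the highest for the immediate early genes, which neurons switch on when active: the mean log2 signal of 8 such genes was 9.78 and 9.52 with TCQA, against 11.82 and 10.66 in control, with 7 of the 8 lower at an unadjusted p under 0.05 (background 2.86%). The part of this array's state in the Mapt value was not tested.

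Apoe had log2 signals of 17.58 and 17.66 with TCQA, against 17.43 and 17.62 in control. The TCQA arrays and control replicate 2 were within 0.08 of each other and control replicate 1 was lower. The difference was 0.09 (SE 0.18, 95% confidence interval -0.34 to 0.53), and without control replicate 1 it was -0.0001. Of 7 astrocyte markers 5 had a higher mean with TCQA, the median difference was 0.21 and 0 passed the unadjusted threshold (background 6.24%). Their summed linear signal was 137083 and 162137 with TCQA, against 164785 and 145665 in control. That sum came mostly from Slc1a2, which was lower in mean with TCQA (difference -0.12). The mean log2 signal of the 7 was 12.18 and 12.40 with TCQA, against 12.11 and 12.26 in control. Of 6 microglia markers 4 had a higher mean, with a median difference of 0.09 and 0 past the unadjusted threshold. Their summed signals, mostly from P2ry12, were 12599 and 15655 with TCQA, against 12704 and 12325 in control. In whole cortex, fewer cells of a type and less RNA per cell cannot be told apart.

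The tissue label was read from the same marker lists. The 8 neuronal markers had log2 signals of 11.52 to 18.26 on the 4 arrays and a median difference of -0.03, with 3 higher and 5 lower in mean. The groups were apart for 4 of them, 2 in each direction, where 36.6% of all probe sets and 39.6% of those at or above the median signal had groups apart. Past the unadjusted threshold was 1 (background 3.38% called higher), the synaptic vesicle fusion gene Snap25. It had log2 signals of 17.76 and 17.72 with TCQA, against 17.23 and 17.02 in control. Of 6 endothelial and mural cell markers 4 had a higher mean with TCQA. Of the 6, 1 passed the unadjusted threshold (background 3.38% called higher), Slc2a1, with a difference of 0.57. Their summed signals, mostly from Slc2a1, were 35508 and 41552 with TCQA, against 28758 and 24750 in control. The mean log2 signal of the 6 overlapped, at 9.8 and 10.06 with TCQA, against 9.84 and 9.63 in control. Markers of choroid plexus, which lies outside the cortex, varied between arrays. The 6 measured had summed signals of 5630 and 33641 with TCQA, against 693 and 89356 in control, and 0 of the 6 had groups apart (background 36.6%). Outside control replicate 1 these sums came mostly from Ttr, with log2 signals of 12.23 and 14.97 with TCQA, against 7.49 and 16.42 in control. The mean log2 signal of the 6 was 8.0 and 8.81 with TCQA, against 6.6 and 9.34 in control. Meningeal fibroblast markers had summed signals of 2225 and 2322 with TCQA, against 1107 and 2418 in control. Dcn gave the largest part of each sum. Its log2 signals were 10.06 and 10.01 with TCQA, against 8.67 and 10.62 in control. Of the 7, all were higher in mean, Col1a1 by only 0.01, and 2 passed the unadjusted threshold (background 3.38%). The 2 were Ogn and Slc6a13. Ogn had log2 signals of 8.45 and 8.92 with TCQA, against 6.9 and 7.46 in control. Those of Slc6a13 were 8.52 and 8.61 with TCQA, against 7.98 and 7.9 in control. However, 3 of the 7 (Col1a1, Col1a2 and Slc22a6) lay under the median negative control on all 4 arrays, so their detection is uncertain. Apoe was lowest on the array where both of these lists were lowest, control replicate 1, and Psen2 was lowest there too. The part of these cells in the results was not tested.

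**Figure D3:**
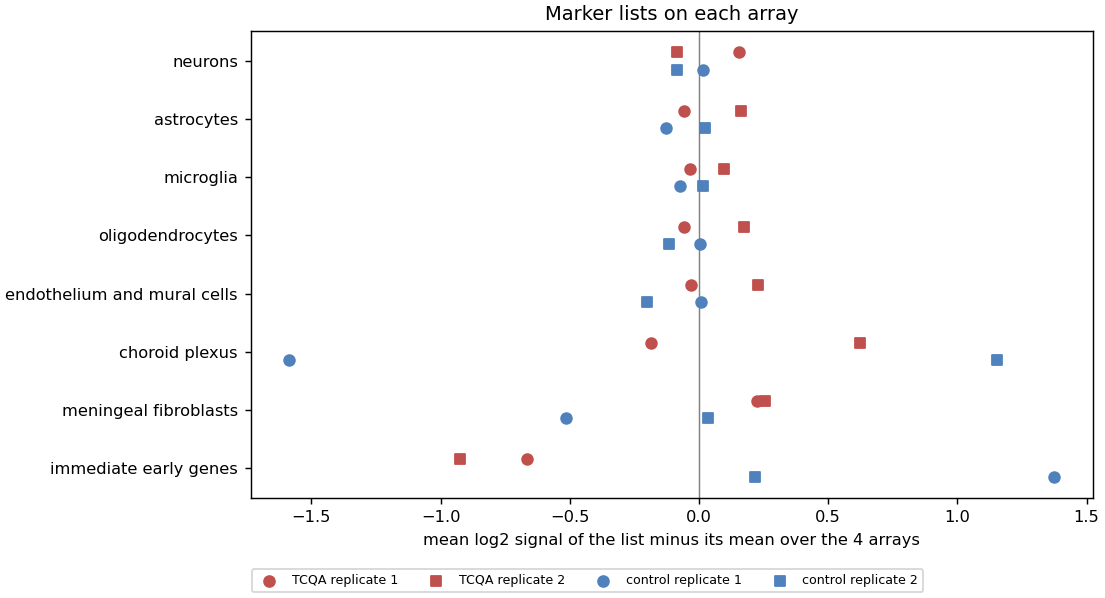
Mean log2 signal of each marker list on the 4 arrays, relative to the list's own mean (TCQA in red above, control in blue below). The neuronal, astrocyte, microglia, oligodendrocyte, and endothelium and mural cell lists stay within 0.25 of 0. Choroid plexus markers and immediate early genes spread over more than 2 log2 units.

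Other genes of the pathway were read from 8 lists, of which 75 genes were measured. At an unadjusted p under 0.05, 0 of the 75 were higher with TCQA and 1 was lower (1.33%, against 6.24% of all probe sets), and 0 passed after adjustment. This comparison depended on how the spread was estimated: without moderation 9 of the 75 passed the unadjusted threshold (12%, against 6.09% of all probe sets), and with a trend and robust prior 7 did (9.33%, against 6.95%). The lower gene was Cdk5r2, which encodes p39, a neuronal activator of the tau kinase CDK5. It had log2 signals of 12.36 and 12.17 with TCQA, against 13.22 and 13.00 in control. Both TCQA arrays were well below both control arrays. The difference was -0.85 (SE 0.19, 95% confidence interval -1.31 to -0.39), a 1.80-fold lower level (limma adjusted p = 0.7875). Its partner kinase Cdk5 differed by -0.10 (SE 0.18) with overlapping groups, and Cdk5r1, which encodes the related activator p35, by -0.12 (SE 0.17).

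Among all 15 measured tau kinase and phosphatase genes, 12 had a lower mean with TCQA, with a median difference of -0.17. The TCQA arrays lay below the control arrays for 8 (background 19.2% at or above the median signal). The tau kinase Gsk3b, in contrast, had log2 signals of 15.58 and 15.60 with TCQA, against 15.59 and 15.51 in control. The 8 genes of microtubule proteins had a median difference of -0.04, with 4 higher and 4 lower in mean. Over the 75 genes, 29 had both TCQA arrays below both control arrays and 9 had them above, together 38 of 75 (50.7%), where all probe sets at or above the median signal gave 19.2% below and 20.4% above. The genes of these lists were not drawn at random, and the difference from the background was not tested.

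The APP family and adaptor list had a median of -0.16, with 7 of 9 genes lower in mean and 0 past the unadjusted threshold. Aplp1, a paralogue of App, had log2 signals of 16.57 and 16.56 with TCQA, against 16.57 and 16.72 in control. Aplp2, the other paralogue, had 14.52 and 14.35 with TCQA, against 14.63 and 14.73 in control, a difference of -0.24 (SE 0.18). Secretase substrates other than App, such as Nrg1, had a median of -0.19, with 6 of 9 lower in mean. One of these 6, Notch1, lay under the median negative control on all 4 arrays, so its detection is uncertain. The lists of other secretases and their partners, of APP and BACE1 sorting, and of amyloid-beta degradation had medians of 0.03, 0.06 and 0.02. That of Apoe lipid handling and receptors had one of -0.14. In these 4 lists 0 genes passed the unadjusted threshold. In the Apoe list, 3 of the 11 measured genes lay under the median negative control on all 4 arrays, so their detection is uncertain. These were Abca7 (difference -0.61), Nr1h3 (-0.313) and Apoc1 (-0.305), all on the negative side, so the sign of that median rests partly on them.

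**Figure D4:**
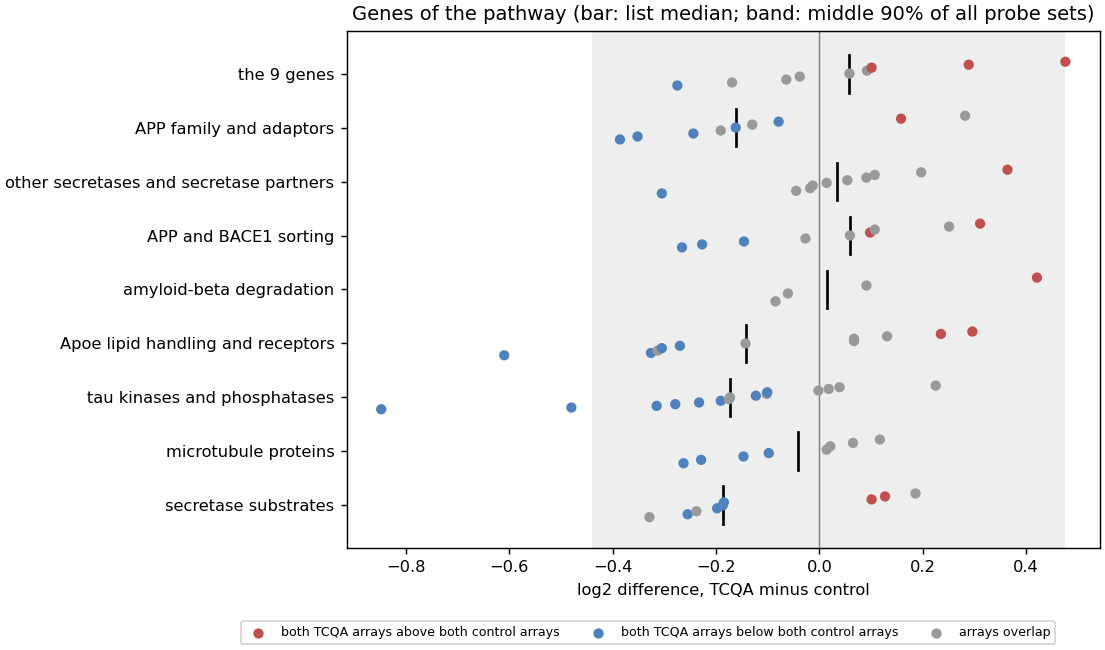
Log2 difference (TCQA minus control) of each measured gene of the 8 pathway lists and of the 9 genes, with a bar at each list median. The grey band holds the middle 90% of all probe sets (-0.44 to 0.47), and Cdk5r2, at -0.85, lies farthest outside it.

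The chromosomal neighbours of the 9 genes were read as a further comparison. Of the 18 nearest measured protein-coding genes on either side, 8 had groups apart (44.4%, background 36.6%) and 1 had an unadjusted p under 0.05 (background 6.24%), both near the background. That gene was Car14, which lies beside Aph1a on chromosome 3 and differed by 0.50 (SE 0.17). Next to Apoe on chromosome 7, Tomm40, a subunit of the mitochondrial import pore, differed by -0.32 (SE 0.18), with the TCQA arrays below the control arrays, and did not pass the unadjusted threshold. Apoc1, a further apolipoprotein gene, lay under the median negative control on all 4 arrays.

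The genes most like App and Apoe were found by the Euclidean distance between mean-centred log2 values over the 4 arrays. For App these were Sys1, Lonrf2 and Ostf1, at distances of 0.015 to 0.022, and for Apoe they were Tsc22d1, Yaf2 and Emc2, at 0.009 to 0.019. Among the 9789 probe sets searched, 300 lay within 0.1 of App and 223 within 0.1 of Apoe, so 4 arrays do not single out a few genes.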

How the data were processed

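Each probe set has 1 deposited log2 signal per array, which the authors made, per the labels' protocols, from 100 ng of RNA on Clariom S mouse arrays by SST-RMA in version 4.0.2 of the Transcriptome Analysis Console. SST-RMA brings the arrays to a common distribution, so that a shift of all genes would not be seen. The build behind the platform annotation is not given here, and coordinates are those of the RefSeq tables (GRCm38.p6). The 6640 control probe sets were set aside and 22206 gene probe sets tested, 19572 of them with 1 symbol. The fit used lmFit and eBayes of limma 3.58.1 (R 4.3.3), two-sided, TCQA minus control, with 2 residual and 4.23 prior degrees of freedom and p-values adjusted across every probe set tested (Benjamini-Hochberg). Detection calls were not used. The median negative control lay at 7.17 to 7.32 and the median gene at 7.12 to 7.17. The number of arrays limits the precision, with a median SE of 0.20. In 20 simulations of this comparison over 22206 genes, few genes were changed and the noise was normal, with the fitted prior spread. There 49.7% of genes changed by 0.5 and 98.85% of those changed by 1.5 on the log2 scale had an unadjusted p under 0.05. After adjustment 0% of either size passed, a share that depends on how many genes change and so holds for this setting only. The 9 genes and all lists were chosen with earlier results of these data known. All 9 were named. From each pathway list up to 3 genes with an unadjusted p under 0.05 were named, which gave Cdk5r2. The other genes named outside the 9 were chosen after their values were seen, except the 3 most like App and Apoe. Of 82 listed pathway genes 7 were not analysed here.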

Additional observations from a re-analysis of the deposited data

How the results depend on the processing

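The count of the 9 genes at an unadjusted p under 0.05 was 1 (Psen2), and 1 without moderation, with quantile normalization, with median centring and with the replicate number as a block. It was 0 with a trend and robust prior, 0 among probe sets at or above the median signal, which leaves out Psen2, and 0 without each array in turn. After adjustment, or with a change over 2-fold, 0 of the 9 passed under every alternative run. Of the other pathway genes 1 passed the unadjusted threshold, against 9 without moderation (12%, beside 6.09% of all probe sets), 7 with the trend and robust prior (9.33%, beside 6.95%), 2 among brighter probe sets, 2 with the replicate block and 1 to 4 without each array, and with a change over 2-fold 0 to 1 without each array. Over all probe sets the depositors' criterion gave 83, against 25 without moderation, 36 among brighter probe sets and 160 to 291 without each array, and the adjusted threshold gave 0 to 4 without each array. Small differences changed sign: App was 0.012 under quantile normalization. Without each array in turn the difference was -0.106 to 0.030 for App, -0.406 to 0.069 for Mapt, -0.189 to 0.061 for Aph1a, -0.023 to 0.139 for Ncstn and -0.0001 to 0.183 for Apoe. The differences of Bace1, Psenen, Adam10 and Psen2 kept their sign under every alternative run but not their size: without each array they were -0.373 to -0.178 for Bace1, 0.174 to 0.404 for Psenen, 0.0227 to 0.179 for Adam10 and 0.386 to 0.566 for Psen2. Where an array is left out, its group has 1 array, which is assumed to vary like the other group. Same-numbered arrays share only a number (correlation of their deviations 0.05), and the block changed no call among the 9. Except where fewer probe sets or arrays were used, the cause of a change was not tested.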
